A study of Mus musculus with 2 samples.

Results

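The cells described here are astrocytes and stem-like astroglia of the mouse lateral striatum, 187 of 4841 barcodes in the 2 deposited single-cell libraries. A barcode is the tag shared by all transcripts captured from 1 droplet, and a unique molecular identifier (UMI) marks 1 captured transcript. Of the 4418 barcodes with at least 500 detected genes and at most 15% mitochondrial UMIs, cells were selected on Gfap, Thbs4, Gja1, Aqp4 and Aldoc, which together had to reach 5 UMIs per 10000 UMIs of the barcode. Barcodes were left out when Dlx1, Dlx2 and Dlx6os1 (neuroblasts) reached 3, Pdgfra, Cspg4 and C1ql1 (oligodendrocyte precursors) 5, Mobp, Mog and Mal (mature oligodendrocytes) 40, or Cldn5, Flt1, Ly6c1 and Pecam1 (endothelium) 20 per 10000. The rule left 91 cells contralaterally and 96 ipsilaterally. The members were chosen by the levels of these 18 genes, so their levels are given below only as a description.

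Male C57/BL6 mice underwent occlusion of the middle cerebral artery for 60 min at postnatal day 10, followed by 2 weeks of reperfusion. The ipsilateral library came from the lateral striatum on the side of the occluded artery and the contralateral library from the opposite side, with the striata of 3 mice pooled in each, so mice of both groups were operated on and neither group is a naive control. The dissociated tissue was sorted on A2B5 and/or O4, cell-surface antigens used to collect glial progenitors and the oligodendrocyte lineage, and the labels call the sorted cells oligodendrocytes. The astroglia are therefore what that sort and the dissociation let through, and their numbers do not measure astrocytes in the tissue.

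Astrocytes clear glutamate and potassium from the space around neurons, exchange water at their endfeet on blood vessels through the channel encoded by Aqp4, and supply neurons with lactate and cholesterol. Astroglia of the ventricular wall next to the striatum act as neural stem cells, and Thbs4, a secreted thrombospondin, is known from such ventricular-wall astroglia and from the astrocytes they produce after cortical injury. Gfap, the intermediate filament of astrocytes, is the classical marker of their reaction to injury.

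There is 1 library per side, so no difference between sides has a replicate check and none was tested. Intervals are exact 95% limits (Poisson for UMI counts scaled to CPM, 100 times the value per 10000 UMIs, and Clopper-Pearson for shares) and cover counting error only. The contralateral library held 36063045 UMIs in 2066 barcodes and the ipsilateral 54788795 in 2775, with 0 barcode sequences in common. The astroglia had a median of 8678 UMIs and 3276 genes per cell contralaterally (range of UMIs 3206 to 23427) and 8713.5 UMIs and 3282.5 genes ipsilaterally (1161 to 19073). They made up 4.76% (3.85 to 5.81) of filtered barcodes contralaterally and 3.83% (3.12 to 4.66) ipsilaterally, a difference of -0.92 percentage points (-2.20 to 0.31). Among barcodes that reached none of the neuroblast and oligodendrocyte-lineage limits the shares were 91 of 421 and 96 of 443, or 21.6% and 21.7%. The lowest summed selecting-gene level inside the limit of 5 was 5.46 contralaterally and 5.24 ipsilaterally, and the highest outside it 4.95 and 4.97, with 9 and 8 cells between 5 and 10.

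The label held against astrocyte genes that the selection did not use. The 16 such genes, among them the glutamate transporters Slc1a2 and Slc1a3 and the transcription factor Sox9, summed to 23570 CPM contralaterally and 23885 CPM in ipsilateral astroglia, and none of the 16 was at 0. In barcodes that reached only the neuroblast limit the same genes summed to 667 and 738 CPM, and in mature oligodendrocyte barcodes to 404 and 407 CPM. The sums were highest in barcodes that reached only the precursor limit, at 2248 and 1805 CPM, and stood at 159 and 119 CPM in endothelial barcodes. Every one of the 187 cells had at least 43.5 UMIs per 10000 of this list, and the median was 217 in both libraries.

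Markers of vascular, immune and neuronal cells were low in sum. Of 10 microglial genes 8 were at 0 contralaterally and 7 ipsilaterally, and the 10 summed to 42.1 and 48.3 CPM. Neuronal genes summed to 52.4 and 50.6 CPM and fibroblast genes to 27.3 and 42.7 CPM. Endothelial genes summed to 23.9 and 11.2 CPM, and to 6.83 and 1.12 CPM for the 4 outside the selection. Mural-cell genes summed to 114 and 73.1 CPM, with the smooth-muscle myosin Myh11 at 0 on both sides. The mural gene Pdgfrb was by contrast common, with a UMI in 46.2% and 35.4% of astroglia. Its share was 0.365% and 0.0998% in mature oligodendrocyte barcodes and 0.382% and 0.835% in neuroblast barcodes. Oligodendrocyte-lineage markers stood higher, at 247 and 216 CPM for the 5 precursor genes outside the selection and 264 and 271 CPM for committed cells. All precursor genes, selecting genes included, summed to 277 and 251 CPM. They summed to 8146 and 7605 CPM in precursor barcodes, which were chosen on some of them. Neuroblast markers stood at 93.4 and 87.7 CPM, and at 71.7 and 59.6 CPM for the 5 outside the selection. The 5 mature oligodendrocyte genes outside the selection summed to 1470 and 1632 CPM, spread over all 91 and all 96 cells. The 8 mature oligodendrocyte markers, selecting genes included, stood at 1711 and 1937 CPM in the astroglia and at 1279 and 1897 CPM in neuroblast barcodes. Ependymal genes, which mark the ciliated lining of the ventricle, summed to 372 and 259 CPM. One contralateral cell, with Aqp4 and 18506 UMIs, held all 37 UMIs of Ccdc153 and all 35 of Tmem212, and 97.8 UMIs per 10000 of the ependymal list. Without the cell that held most of them, the contralateral ependymal sum was 170 CPM. UMIs of the list were found in 53 of 91 and 65 of 96 cells.

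Thbs4 and Aqp4 divided the astroglia into 4 classes, with a limit of 1 UMI per 10000 for each gene. Thbs4 cells (Thbs4 without Aqp4) numbered 19 contralaterally and 22 ipsilaterally, or 20.9% (13.1 to 30.7) and 22.9% (15.0 to 32.6) of the astroglia. Aqp4 cells (Aqp4 without Thbs4) numbered 34 and 31, or 37.4% and 32.3%. Cells with both numbered 17 and 23, and cells with neither 21 and 20. All 4 classes were present on both sides, and the share of Thbs4 cells differed by 2.04 percentage points with an interval of -10.6 to 14.5.

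**Figure D1:**
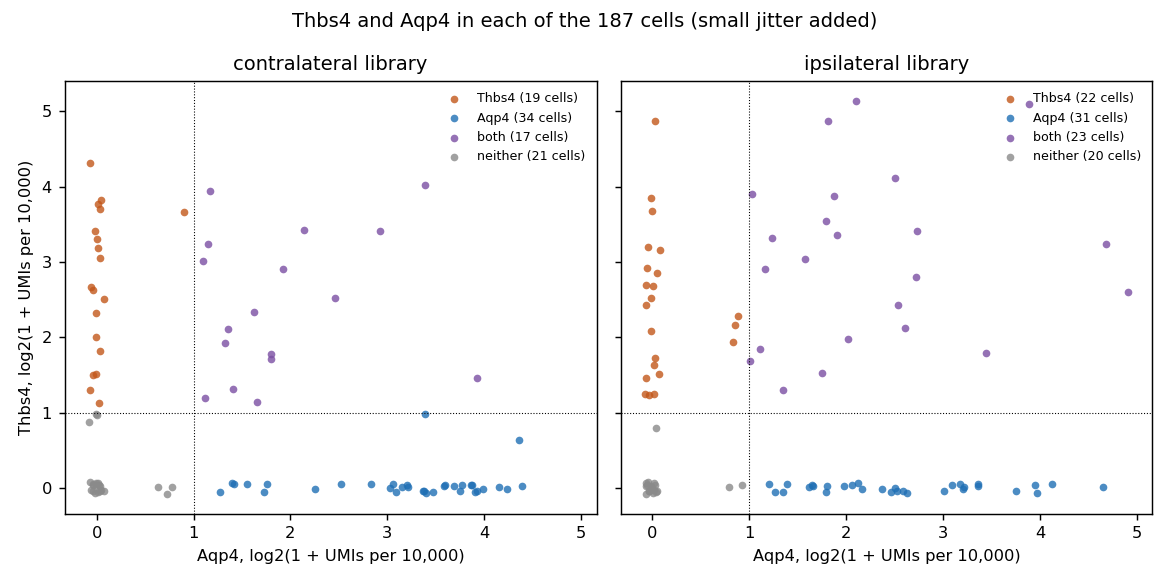
Each point is 1 cell, with Aqp4 on the horizontal and Thbs4 on the vertical axis as log2(1 + UMIs per 10000), contralateral library left and ipsilateral right; points carry a small jitter, dotted lines are the class limit of 1 per 10000 and colours the 4 classes. The 19 and 22 Thbs4 cells lie along the vertical axis, the 34 and 31 Aqp4 cells along the horizontal, and the 17 and 23 cells with both between them.

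The classes differed in depth as well as in these genes. Thbs4 cells had a median of 7417 and 7859 UMIs and cells with both 7227 and 7445, while Aqp4 cells had 10795 and 9780 and cells with neither 10681 and 10741. Because a cell below 10000 UMIs passes the limit with 1 UMI, the part of depth in the split was not tested beyond the other limits tried for it.

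Across single cells, Thbs4 and Aqp4 were weakly opposed, with a Spearman correlation of -0.20 over the 187 cells (-0.32 contralaterally, -0.08 ipsilaterally). The points share a library and its depth, and the coefficients are descriptions. Among 8227 genes compared, those most like Thbs4 were Cpe (0.52), which encodes a peptide-processing enzyme, the calcium-binding protein gene S100a6 (0.50), Fxyd1 (0.49), Oat (0.49), the neurotrophin receptor Ntrk2 (0.48), Dbi (0.45), Gnas (0.45) and Gfap (0.45). Those most like Aqp4 were the zinc transporter Slc39a12 (0.66), the protease Htra1 (0.63), the protease inhibitor Timp4 (0.63) and the proteoglycan Bcan (0.63). Fam20a (0.62), Sparcl1 (0.62) and Gpr37l1 (0.60) came next. With the UMIs per cell, the genes most like Thbs4 had coefficients from -0.35 (Ntrk2) to -0.04 (S100a6). Those most like Aqp4 had coefficients from 0.03 (Htra1) to 0.25 (Gpr37l1). The part of depth in these lists was not tested.

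Thbs4 cells and Aqp4 cells were then compared within each library on summed UMIs, as the log2 ratio of CPM after adding 5 CPM to each. Of 3642 genes with at least 50 UMIs, 61 (1.67%) were at least 2-fold higher in Thbs4 cells in both libraries and 146 (4.01%) at least 2-fold higher in Aqp4 cells in both, Thbs4 and Aqp4 themselves included. In single libraries the shares were larger, 6.01% and 9.91% contralaterally and 5.66% and 6.64% ipsilaterally. The 2 libraries are different conditions and the classes were cut on 2 genes of the same cells, so these counts are descriptions.

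**Figure D2:**
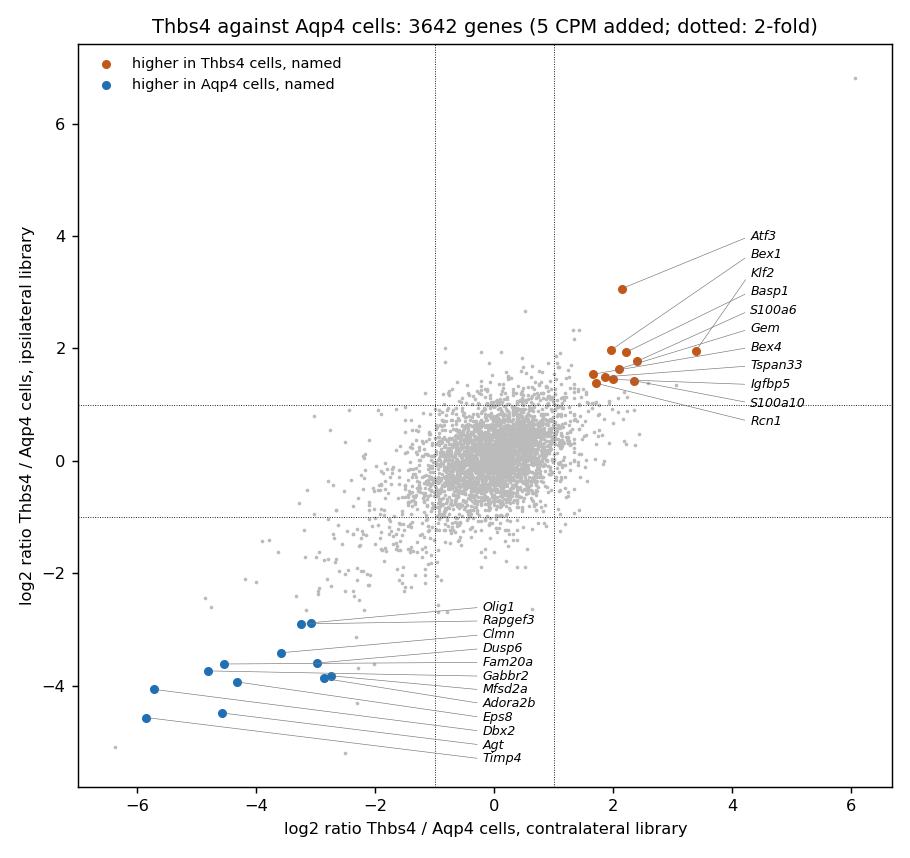
Each point is 1 of 3642 genes, placed by its log2 ratio of Thbs4 over Aqp4 cells in the contralateral (horizontal) and ipsilateral (vertical) library, with 5 CPM added; dotted lines mark 2-fold. The genes named for each direction are coloured and labelled, and the unlabelled points furthest out at upper right and lower left include Thbs4 and Aqp4 themselves.

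Genes of the mature astrocyte's transport work were lower in Thbs4 cells. All 11 measured genes for glutamate, potassium and water handling were below 0 in both libraries, 7 of them by at least 2-fold, with list medians of -1.41 contralaterally and -1.51 ipsilaterally, against 0.02 and 0.08 for all measured genes. Of all 3642 measured genes, 1078 were below 0 in both libraries and 146 by at least 2-fold. Slc4a4, the sodium bicarbonate cotransporter, stood at 138 CPM in Thbs4 against 1112 CPM in Aqp4 cells contralaterally and at 167 against 878 CPM ipsilaterally. The sodium pump subunit Atp1b2 stood at 468 against 1248 CPM and 391 against 1140 CPM. The glial glutamate transporter Slc1a2 lay closer together, at 3888 against 6929 CPM and 4019 against 6108 CPM. Slc1a2 was thus abundant in both classes, and the gap was wider for Slc4a4 and Atp1b2.

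Astrocyte markers in general leaned the same way. Of the 16 outside the selection, 14 were below 0 in both libraries and 6 by at least 2-fold, with medians of -0.93 and -0.68. The counts over all 3642 genes were 1078 and 146. Aldh1l1, a folate enzyme used to mark astrocytes, stood at 48.2 against 209 CPM and 67.8 against 198 CPM. The growth factor receptor Fgfr3 stood at 89.5 against 353 CPM and 83.4 against 223 CPM. Sox9, which specifies glia, ran the other way, with 2058 CPM in Thbs4 against 1239 CPM in Aqp4 cells contralaterally and 1569 against 1111 CPM ipsilaterally.

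Several genes of the Aqp4 cells were at or near 0 in Thbs4 cells. The metalloproteinase inhibitor Timp4 had 0 UMIs in 19 Thbs4 cells and 105 UMIs in 34 Aqp4 cells contralaterally, at least 13.8-fold higher in the latter when 3 UMIs are set as the floor, and 1 against 73 UMIs ipsilaterally. This fold and those below take the higher count as it stands and leave out its counting error. For Timp4 the contralateral upper limit in Thbs4 cells was 25.4 CPM and the lower limit in Aqp4 cells 233 CPM. Dbx2, a homeobox transcription factor, had 0 against 96 UMIs (at least 12.6-fold) and 2 against 78. Agt, which encodes angiotensinogen, had 0 against 42 UMIs (at least 5.52-fold) and 1 against 69, and the secretory-pathway pseudokinase gene Fam20a had 0 against 41 (at least 5.39-fold) and 1 against 37. Gabbr2, a subunit of the metabotropic GABA receptor, had 0 against 50 UMIs (at least 6.57-fold) contralaterally and 0 against 19 (at least 3.93-fold) ipsilaterally, and the actin regulator Eps8 had 0 against 35 (at least 4.60-fold) and 0 against 22 (at least 4.56-fold). These genes thus appeared in Aqp4 cells and hardly in Thbs4 cells in both libraries. Timp4 was nevertheless found in cells with both transcripts, at 129 and 101 CPM. So were Agt (144 and 111 CPM), Dbx2 (114 and 95.7 CPM) and Fam20a (45.4 and 116 CPM). Eps8 stood there at 7.57 and 30.2 CPM and Gabbr2 at 0 and 5.04 CPM. In cells with neither transcript Dbx2 stood at 108 and 73.5 CPM and Timp4 at 25.9 and 10.5 CPM. Agt and Fam20a were at 0 in them on both sides, Gabbr2 at 0 and 5.25 CPM and Eps8 at 8.62 and 5.25 CPM.

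Of the remaining genes named for Aqp4 cells, the adenosine receptor gene Adora2b had 1 against 30 UMIs and 0 against 21, and the cyclic-AMP exchange factor Rapgef3 stood at 6.88 against 108 CPM and 10.4 against 110 CPM. Dusp6, a phosphatase that restrains ERK signalling, stood at 13.8 against 144 CPM and 10.4 against 181 CPM. The lipid transporter Mfsd2a stood at 20.6 against 168 CPM and 5.21 against 139 CPM, and Clmn at 13.8 against 220 CPM and 5.21 against 104 CPM. Olig1, a transcription factor of the oligodendrocyte lineage that astrocytes can also carry, stood at 20.6 against 212 CPM and 26.1 against 223 CPM. With the cells left out that had UMIs of at least 3 DNA replication and mitosis genes, its ipsilateral log2 ratio was -1.27 in place of -2.88.

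Other lists leaned the same way, beside 1078 of 3642 genes below 0 in both libraries and 146 at least 2-fold higher in Aqp4 cells. Of 9 measured synapse and matrix genes 4 were at least 2-fold higher in Aqp4 cells, namely Sparcl1 (3534 against 1397 CPM contralaterally, 3177 against 777 CPM ipsilaterally), Gpc5, Bcan and Ncan. Sparc, whose protein opposes that of Sparcl1 at synapses, was by contrast higher in Thbs4 cells, at 1314 against 239 CPM and 772 against 554 CPM. Of 14 measured cholesterol synthesis genes 12 were below 0 in both libraries, with medians of -1.13 and -0.60, and Msmo1 stood at 392 against 1280 CPM and 365 against 722 CPM. Among phagocytosis and lipid-transport genes the engulfment receptor Mertk stood at 41.3 against 236 CPM and 31.3 against 175 CPM. The angiogenic factor Vegfa stood at 41.3 against 331 CPM and 62.6 against 223 CPM. The helix-loop-helix inhibitors Id1 and Id2 were also at least 2-fold higher in Aqp4 cells in both libraries, with Id2 at 606 against 2069 CPM and 719 against 1775 CPM.

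Genes higher in Thbs4 cells included those of S100 proteins, an intermediate filament and a growth-factor-binding protein. S100a6 stood at 1067 CPM in Thbs4 against 198 CPM in Aqp4 cells contralaterally and at 1063 against 308 CPM ipsilaterally, and its relative S100a10 at 255 against 46.1 CPM and 104 against 35.6 CPM. S100a6 had a UMI in 94.7% and 100% of Thbs4 cells, in 58.8% and 74.2% of Aqp4 cells, and in 56.9% and 63.3% of mature oligodendrocyte barcodes, which had median depths of 27732 and 28594.5 UMIs. After thinning every cell to 4344 UMIs, the shares were 94.4% and 95.2%, 40.0% and 57.1%, and 23.3% and 26.6%. Igfbp5, a binding protein for insulin-like growth factors, stood at 1370 against 342 CPM and 1574 against 573 CPM, and the filament gene Vim at 709 against 277 CPM and 792 against 337 CPM. Pax6, a patterning factor of the dorsal forebrain and its ventricular wall, stood at 385 against 78.7 CPM and 318 against 143 CPM. Ependymal genes summed to 392 and 370 CPM in Thbs4 cells, with UMIs in 16 of 19 and 19 of 22 cells. In Aqp4 cells they summed to 616 and 152 CPM, and to 131 CPM contralaterally without the cell that held most of them. The sums were 144 and 413 CPM in cells with both transcripts and 103 and 157 CPM in cells with neither.

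Lower-level genes of the same direction were Bex1 (131 against 29.8 CPM and 78.2 against 16.2 CPM) and Basp1 (131 against 24.4 CPM and 125 against 29.1 CPM). Others were Bex4, Tspan33, Rcn1 and the small GTPase gene Gem (282 against 62.4 CPM and 302 against 93.9 CPM). Rcn1 was higher still in cells with neither transcript, at 142 and 121 CPM, against 117 and 109 CPM in Thbs4 cells. Bex4 stood at 103 and 121 CPM in cells with neither, against 96.3 and 198 CPM in Thbs4 cells.

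Immediate early genes, which many stimuli induce within minutes, warm dissociation among them, leaned towards Thbs4 cells in this comparison. The part of dissociation was not tested. Of 15 measured members 12 were above 0 in both libraries, 3 by at least 2-fold, with medians of 1.12 and 0.48, beside 1290 of 3642 genes above 0 in both libraries. Cells with neither transcript had this list at a median of 211 and 234 UMIs per 10000, Thbs4 cells at 230 and 211, and Aqp4 cells at 92.9 and 144. Fos stood at 6779 against 2807 CPM and 6355 against 3491 CPM. Klf2 stood at 757 against 67.8 CPM and 1110 against 282 CPM, and Atf3 at 172 against 35.3 CPM and 172 against 16.2 CPM. The ipsilateral values of the last pair depended on a few cells. Without the cells that had UMIs of at least 3 DNA replication and mitosis genes, 13 Thbs4 and 22 Aqp4 cells remained ipsilaterally, Klf2 stood at 499 against 417 CPM, and Atf3 had 2 against 5 UMIs, a log2 ratio of -0.24. Contralaterally both genes remained higher in Thbs4 cells, with log2 ratios of 4.04 and 2.03. Mature oligodendrocyte barcodes had Klf2 in 14.0% and 15.8% of cells after thinning, against 66.7% and 42.9% of Thbs4 cells, and in 40.3% and 41.3% before it, against 73.7% and 50.0%.

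Cells with both transcripts lay between these classes for Slc4a4, at 439 and 418 CPM, and for Timp4. S100a6, at 863 and 1012 CPM, and Igfbp5, at 1794 and 1788 CPM, were nearer to their levels in Thbs4 cells. Clu, a secreted chaperone, stood at 5578 and 8229 CPM, above the other classes on both sides.

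Cells with neither transcript were rich in genes of activated stem and transit-amplifying cells. Summed over 12 such genes, the median cell with neither held 27.2 contralateral and 22.6 ipsilateral UMIs per 10000, against 10.97 and 8.01 in Thbs4 cells and 6.05 and 5.45 in Aqp4 cells. The 5 precursor markers outside the selection summed to 336 and 168 CPM in cells with neither, 61.9 and 78.2 CPM in Thbs4 cells and 317 and 376 CPM in Aqp4 cells, and their part in this was not tested. Egfr, which marks activated stem cells, stood at 289 and 231 CPM, against 34.4 and 31.3 CPM in Thbs4 and 111 and 159 CPM in Aqp4 cells. The G1 cyclin gene Ccnd2 stood at 1267 and 1706 CPM, against 412 to 482 CPM in Thbs4 and Aqp4 cells of both libraries. The Notch ligand Dll1 had 15 and 13 UMIs, out of 22 and 16 in all astroglia of each library.

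These cells kept astrocyte transcripts at a lower level. Slc1a2 stood at 2245 and 2651 CPM and Apoe, the main lipid carrier, at 9075 and 7039 CPM, compared with 16785 and 14706 CPM in Thbs4 cells. Clu stood at 905 and 787 CPM and Id2 at 99.1 and 273 CPM, the lowest of the 4 classes on both sides. Aldoc, 1 of the selecting genes, was at 1176 and 961 CPM, and the summed selecting genes had a median of 13.6 and 15.8 per 10000, against 47.2 and 53.0 in Thbs4 cells. The cells with neither transcript are therefore the ones closest to the selection limit.

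Replication and mitosis genes were sparse. UMIs of at least 3 of 16 such genes were found in 32 of 91 contralateral (35.2%) and 36 of 96 ipsilateral cells (37.5%), and in 11 of 21 and 12 of 20 cells with neither transcript. Cells that reached this count were deeper, with medians of 10976.5 against 7875 UMIs contralaterally and 11586 against 7323 ipsilaterally. After thinning the shares were 13.4% and 17.4% in all astroglia, and 4 of 19 and 6 of 16 in cells with neither. The proliferation gene Mki67 had 10 and 5 UMIs in all.

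**Figure D3:**
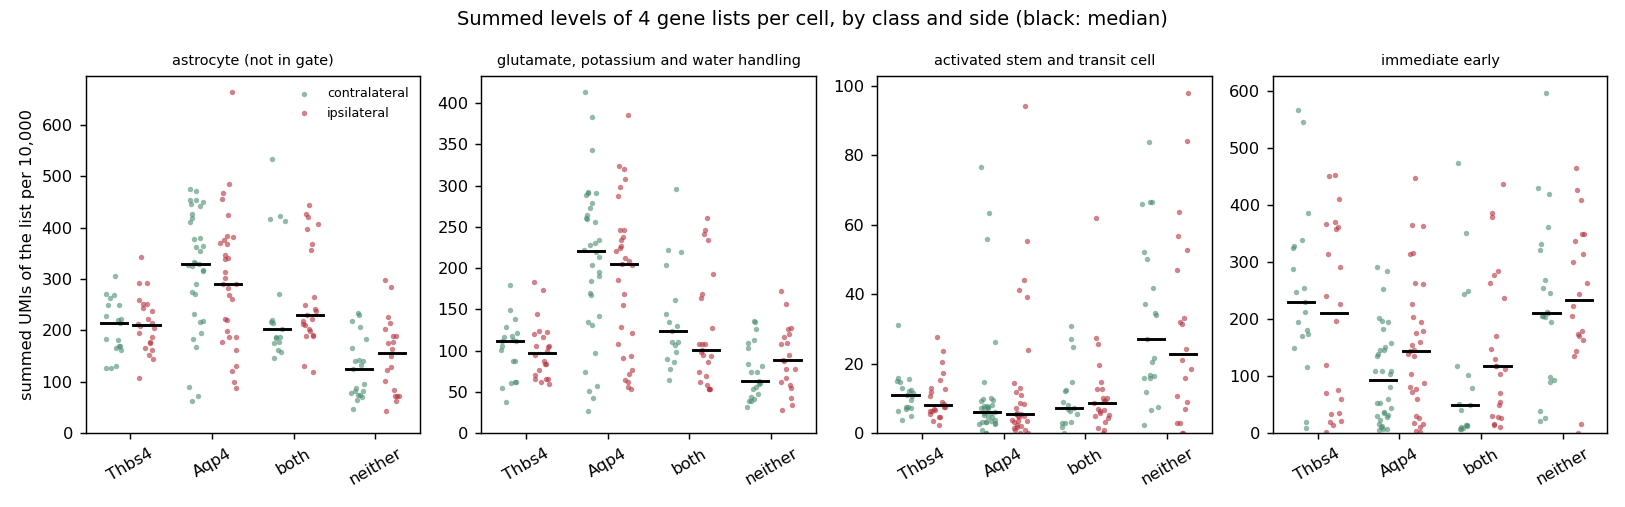
Summed UMIs per 10000 of 4 gene lists are shown for each cell, by class and side, with black bars at the medians. Medians of the glutamate, potassium and water list are highest in Aqp4 cells (221 and 205), and those of the activated stem and transit list in cells with neither (27.2 and 22.6).

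Between sides, Gfap was the selecting gene with the widest ratio. It stood at 227 CPM (196 to 260) on the contralateral side against 519 CPM (473 to 569) on the ipsilateral side, with UMIs in 50.5% and 69.8% of cells. After thinning the shares were 32.9% and 58.1%, against 0.735% and 2.28% in mature oligodendrocyte barcodes (median depths 27732 and 28594.5 UMIs) and 1.02% and 1.61% in neuroblast barcodes. The part of RNA from outside the cells was not tested. Gfap took part in choosing the cells, so its level between sides is a description.

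By class, Gfap stood at 379 and 448 CPM in Thbs4 cells, 171 and 227 CPM in Aqp4 cells, 530 and 1340 CPM in cells with both, and 47.4 and 210 CPM in cells with neither. The counting intervals of the sides overlapped in Thbs4 cells and Aqp4 cells and lay apart in the other classes. Aqp4 cells with any Gfap UMI numbered 12 of 34 contralaterally and 23 of 31 ipsilaterally. Thbs4 itself stood at 204 and 320 CPM over all astroglia, Aqp4 at 476 and 380 CPM, Gja1, the main astrocyte connexin, at 1043 and 955 CPM, and Aldoc, a glycolytic aldolase, at 2662 and 2882 CPM.

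**Figure D4:**
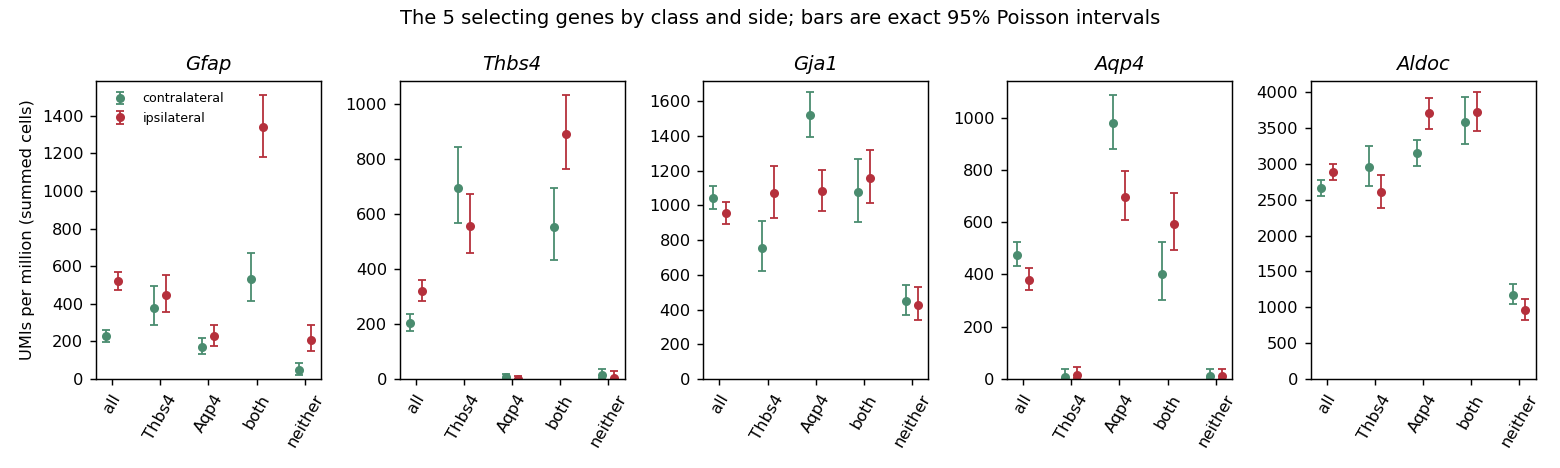
CPM of the 5 selecting genes is shown for all astroglia and for the 4 classes, contralateral in green and ipsilateral in red, with exact 95% Poisson intervals. Gfap stands at 530 and 1340 CPM in cells with both transcripts and at 47.4 and 210 CPM in cells with neither, with intervals apart in both classes.

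Over all genes the sides were close. Of 5704 genes with at least 50 UMIs, 17 (0.298%) were at least 2-fold higher ipsilaterally, Gfap included, and 14 (0.245%) at least 2-fold lower, and the median log2 ratio was -0.01. For all 31 the counting intervals lay apart, which follows in part from choosing them by their ratio.

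Ifitm3, an interferon-induced membrane protein, was among the genes higher ipsilaterally, at 67.2 CPM (51.1 to 86.7) against 170 CPM (144 to 199), a log2 ratio of 1.28. The apolipoprotein genes Apod and Apoc1 stood at 17.1 against 57.3 CPM and 28.5 against 67.4 CPM. Apod had a UMI in 15.4% and 36.5% of astroglia (thinned 7.32% and 19.8%), in 28.1% and 44.5% of neuroblast barcodes (thinned 9.98% and 17.7%) and, thinned, in 99.4% and 99.1% of mature oligodendrocyte barcodes. Its thinned share in astroglia was below that in neuroblast barcodes contralaterally and above it ipsilaterally. The part of RNA from outside the cells was not tested. The nuclear long noncoding RNA Neat1 stood at 158 CPM (133 to 187) and 350 CPM (312 to 391). Lrrn1, a leucine-rich repeat membrane protein, stood at 36.4 and 94.4 CPM, with thinned shares of 13.4% and 34.9% in astroglia, 21.0% and 26.7% in neuroblast barcodes and 67.1% and 68.2% in mature oligodendrocyte barcodes. Eepd1 stood at 20.5 and 52.8 CPM and the stress kinase Mapk8 (JNK1) at 17.1 and 42.7 CPM.

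The others were Insm1 and 4 genes of DNA synthesis. The PCNA-binding factor Pclaf stood at 14.8 and 56.2 CPM, the ribonucleotide reductase subunit Rrm1 at 14.8 and 43.8 CPM, DNA ligase Lig1 at 14.8 and 41.6 CPM and the helicase subunit Mcm6 at 19.4 and 47.2 CPM. Insm1, a factor of neurogenic progenitors, stood at 14.8 and 42.7 CPM. These 5 genes are common in neuroblast barcodes, where thinned shares were 32.2% to 67.1%, against 2.44% to 16.3% in astroglia, and they rested on few cells. Pclaf was found in 9 contralateral and 13 ipsilateral cells, and 1 ipsilateral cell held 51.4% of the Lig1 UMIs. Without the cells that had at least 3 replication and mitosis genes the log2 ratio was 0.42 for Pclaf and -0.065 for Lig1. By class, Mcm6 had 28 of its 42 ipsilateral UMIs in cells with neither transcript, where it stood at 34.5 and 147 CPM.

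Among the genes lower ipsilaterally, the protocadherin Pcdh7 stood at 66.0 CPM (50.2 to 85.4) and 22.5 CPM (13.7 to 34.7), and the LIM-domain factor Lmo1 at 69.5 and 24.7 CPM. Pdgfa, the ligand of the receptor on oligodendrocyte precursors, stood at 68.3 and 24.7 CPM, with thinned shares of 19.5% and 6.98% in astroglia and 51.3% and 55.5% in mature oligodendrocyte barcodes. The GABA receptor subunit Gabbr2 stood at 56.9 and 23.6 CPM, but its thinned shares of cells were 10.98% and 11.6%. Maob, the amine oxidase of astrocytes, stood at 59.2 and 25.9 CPM, and Etnppl, an enzyme of phospholipid breakdown, at 49.0 and 21.4 CPM. Capn7, Zfp157, B3glct, Fahd1, Cenpv and the noncoding AY036118 were lower too, with log2 ratios from -1.30 to -1.01. AY036118 was lower ipsilaterally by thinned share in astroglia (28.0% and 10.5%), in neuroblast barcodes (22.0% and 12.9%) and in mature oligodendrocyte barcodes (20.2% and 9.83%) alike.

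**Figure D5:**
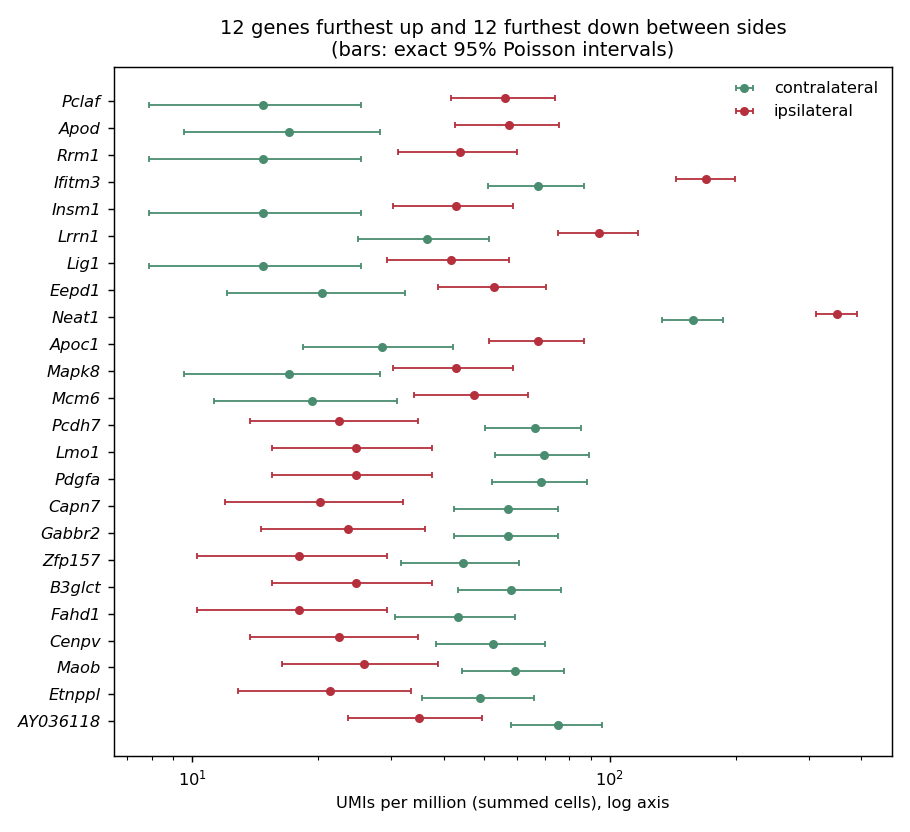
CPM of the 12 genes furthest up and the 12 furthest down ipsilaterally is shown on a log axis, contralateral in green and ipsilateral in red, with exact 95% Poisson intervals. Intervals of each gene lie apart, and most of these genes stand below 100 CPM on both sides.

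Few genes of the reactive astrocyte lists were measured on either side. Of 12 genes reported in reactive astrocytes after several injuries only Vim had 50 UMIs, at 445 CPM (402 to 492) against 572 CPM (523 to 624) ipsilaterally. Lcn2 and Steap4 were at 0 on both sides, as were C3, the complement gene of inflammatory reactive astrocytes, and Tgm1, Sphk1, Ptgs2 and Slc10a6 of the ischaemic list. Of 889672 ipsilateral UMIs, a count of 0 has an exact upper limit of 4.15 CPM. The summed list stood at 522 CPM (406 to 661) and 1053 CPM (915 to 1205) in cells with both transcripts, with medians of 4.79 and 10.17 UMIs per 10000 per cell. Vim gave most of it there, at 507 CPM (393 to 644) and 896 CPM (770 to 1038), while in the other 3 classes the intervals of the summed list overlapped between sides. The chemokine Cxcl10 had 0 contralateral and 26 ipsilateral UMIs, but 22 of the 26 came from 1 cell. Ptx3, a pentraxin of the ischaemic list, stood at 26.2 and 47.2 CPM, S100a10 at 87.7 and 76.4 CPM, and the class I heavy chain H2-D1 at 50.1 and 67.4 CPM.

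Interferon-induced genes summed higher ipsilaterally. The 16 listed genes came to 231 CPM (200 to 265) against 489 CPM (444 to 537) ipsilaterally, and to 210 and 442 CPM without the cell that held most of them on each side. Only Ifitm3 and Ifi27 (62.6 and 92.2 CPM) had 50 UMIs, and Ifitm3 gave 151 of the 435 ipsilateral UMIs. Ifit1 had 0 UMIs contralaterally and 23 ipsilaterally, at least 7.57-fold higher with 3 UMIs as the floor, from 7 cells of which 1 held 12. That fold leaves out the counting error of the 23 UMIs. Their lower limit was 16.4 CPM, against an upper limit of 4.20 CPM contralaterally. Rtp4 had 4 UMIs in 3 cells and 25 UMIs in 9 cells. By class the summed list stood at 385 and 646 CPM in Thbs4 cells, 209 and 570 CPM in Aqp4 cells, 280 and 458 CPM in cells with both and 142 and 231 CPM in cells with neither. In Thbs4 cells 1 ipsilateral cell held 31.5% of these UMIs, the sum without it was 479 CPM, inside the contralateral interval of 291 to 500, and the median cell had 4.46 and 4.67 UMIs per 10000. In Aqp4 cells, with medians of 0.999 and 2.85, the counting intervals lay apart (165 to 261 and 489 to 661), also with 434 CPM left without the highest ipsilateral cell, while those of cells with both (197 to 386 and 369 to 563) and with neither (97.9 to 200 and 168 to 310) overlapped. Microglial genes, 8 and 7 of 10 at 0, stood at 42.1 and 48.3 CPM beside this list.

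Genes of the STAT3 and cytokine response leaned ipsilaterally without reaching 2-fold. Of 7 measured members 6 were above 0, with a median log2 ratio of 0.29, beside 2807 of 5704 for all genes. Socs3, the feedback inhibitor of this pathway, stood at 317 CPM (280 to 356) and 495 CPM (449 to 543). The transcription factor Cebpd stood at 227 and 356 CPM and Junb at 1051 and 1513 CPM. Among immediate early genes Klf2 stood at 280 and 546 CPM and Btg2 at 1824 and 2517 CPM, while Fos was at 4600 and 4892 CPM.

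Medians of the metabolic and homeostatic lists lay between -0.22 and 0.20, beside -0.01 for all genes. Of all 5704 measured genes, 2897 were below 0. Cholesterol synthesis had a median of -0.22, with 12 of 15 measured genes below 0 and Msmo1 at 734 and 492 CPM. Astrocyte markers outside the selection had a median of -0.16, with 12 of 16 below 0, but Clu stood at 3697 and 5205 CPM. Glutamate, potassium and water genes had a median of -0.13, with 10 of 11 below 0. Glycolysis had a median of 0.16 and fatty acid oxidation of 0.20. Stem-cell lists gave -0.19 for quiescent cells, where the thyroid-hormone-binding protein Crym stood at 887 and 578 CPM, and 0.09 for activated cells.

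Within Thbs4 cells 1088 genes reached 50 UMIs, of which 22 (2.02%) were at least 2-fold higher ipsilaterally and 5 (0.46%) at least 2-fold lower. Hes5, a Notch target, stood at 612 CPM (492 to 754) and 1449 CPM (1284 to 1630), found in 16 of 19 and 20 of 22 cells. In cells with both transcripts Hes5 ran the other way, at 976 CPM (815 to 1160) and 363 CPM (284 to 457), and over all astroglia it stood at 944 CPM on each side. Gas1, a growth-arrest gene, stood at 124 and 297 CPM in Thbs4 cells, where 1 ipsilateral cell held 43.9% of its UMIs, and at 336 and 178 CPM in Aqp4 cells. The glycogen phosphorylase Pygb stood at 124 and 292 CPM. The fatty acid genes Acsbg1 (117 and 250 CPM) and Acaa2 (103 and 229 CPM) and the membrane protein gene Efcab14 (89.5 and 261 CPM) were also higher. The counting intervals overlapped for Acsbg1 (68.2 to 187 and 184 to 332) and Acaa2 (57.8 to 170 and 167 to 308), and for some other genes of the 22. Among the lower genes S100a10 stood at 255 and 104 CPM and Crym at 317 and 78.2 CPM, the latter in only 3 and 4 cells.

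Within Aqp4 cells 2364 genes reached 50 UMIs, of which 20 (0.846%) were higher and 20 (0.846%) lower by at least 2-fold. For some of these the counting intervals overlapped between sides. Those higher ipsilaterally included Klf2 (67.8 and 282 CPM), Socs3 at 146 CPM (110 to 191) and 408 CPM (340 to 486), Cebpd (155 and 376 CPM) and Ifitm3 (54.2 and 155 CPM). Sparc (239 and 554 CPM), Marcksl1 (100.3 and 275 CPM) and the prostaglandin synthase Ptgds (43.4 and 110 CPM) were higher too. So was the mature oligodendrocyte marker Cldn11 (59.7 and 146 CPM). The 5 mature oligodendrocyte genes outside the selection summed to 1535 CPM (1411 to 1667) and 1901 CPM (1750 to 2061) in Aqp4 cells. In Thbs4 cells they summed to 1631 and 1465 CPM. The part of RNA from outside the cells was not tested. Those lower included Fgfbp3, which binds fibroblast growth factors, at 163 and 42.1 CPM, Lmo1 (114 and 29.1 CPM), the semaphorin receptor Plxnb1 (146 and 51.8 CPM) and the GABA receptor subunit Gabrg1 (174 and 74.5 CPM). Rarres2, at 209 and 74.5 CPM, had 59.7% of its contralateral UMIs in 1 cell.

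Of 1069 genes measured in both classes, 0 were past 2-fold in opposite directions and 2, Maged1 and Nap1l5, were higher ipsilaterally in both. The intervals of Nap1l5 overlapped in Thbs4 cells (68.2 to 187 and 176 to 320 CPM). In Thbs4 cells Socs3 stood at 778 CPM (641 to 935) against 495 CPM (401 to 605) ipsilaterally, and Cebpd at 564 and 375 CPM, and both were below 2-fold. Hes5 in Aqp4 cells stood at 1296 and 1043 CPM. Whether the side differed between classes was not tested, since each class has 1 library per side.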

How the data were processed

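Per the labels, cells of the lateral striatum were dissociated, sorted and run on the 10x Genomics droplet platform, with 1 library per side. Cell Ranger 3.1.0 and the mm10 build are named in the submitters' processing notes; annotation and counting options: not given in the sources used here. In each matrix, as deposited, the authors' UMI counts per gene and barcode stand unnormalized, for 31053 genes.

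The members and gene lists were chosen with earlier results of these data known. From the counts, barcodes were filtered and gated as the report states, UMIs were added up within each library or class, and CPM was compared as log2 ratios after adding 5 CPM, for genes with at least 50 UMIs in the arms compared; past 2-fold was the call. No test was run, because each side is 1 library of 3 pooled mice. Named genes are the 12 highest and the 12 lowest ratios among genes with at least 20 CPM in one arm and UMIs in at least 10 cells of the higher arm (over both libraries, and by the smaller of the ratios, for the classes), leaving out mitochondrial, ribosomal, histone, numbered and sex-linked genes and the 18 selecting genes; up to 4 genes per list; and the 8 genes most like Thbs4 and Aqp4. Genes within 1 class, and a few others, were named after their values were seen. Some genes that the rule names are not reported here.

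Doublets were not removed. Scrublet, with an expected rate of 0.05, called 14 contralateral barcodes (0.732%) and 101 ipsilateral (4.03%), and 0 of the astroglia. Thinning to 4344 UMIs left out 9 contralateral and 10 ipsilateral astroglia that were shallower. Scripts were tested on simulated data and ran in python 3.11.15 with numpy 2.4.6, scipy 1.17.1, pandas 2.3.3 and scanpy 1.11.5. Scaling factors of edgeR 4.0.16 and DESeq2 1.42.0, in R 4.3.3, served as alternatives among 19 tried.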

Additional observations from a re-analysis of the deposited data

How the results depend on the processing

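Of 19 alternatives, 17 were listed at the start and 2 were chosen after seeing the data, which left out the ciliated cell, or each gene's highest cell. Of 155 counts and shares recomputed, 124 stayed within 1.5 times the reported count or inside the interval of the share. The difference in the share of astroglia ranged from -1.23 to -0.77 points and that in Thbs4 cells from -2.24 to 4.68 points, below 0 under 2 alternatives.

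Counts past 2-fold moved with the added CPM and the minimum of UMIs, and are given higher first. Between sides, 17 and 14 genes became 136 and 119 at a minimum of 10 UMIs, 3 and 0 at 200, and 6 and 2 with 20 CPM added; 1 CPM added gave 29 higher, and a selection limit of 10 gave 9 lower. Between Thbs4 and Aqp4 cells, 61 and 146 became 225 and 435 at 10 UMIs and 18 and 44 at 200, and 20 CPM added gave 38 for Thbs4 cells. Between sides in Thbs4 cells, 22 and 5 became 468 and 293 at 10 UMIs and 1 and 0 at 200. The 22 became 13 at a class limit of 2, 7 at a class limit of 1 UMI, 9 with 20 CPM added and 14 without each gene's highest cell, and the 5 became 3 without cells carrying other cell types' markers. In Aqp4 cells, 20 and 20 became 308 and 394 at 10 UMIs, 1 and 0 at 200, 12 and 8 with 20 CPM added and 31 and 31 with cells weighted equally, and a class limit of 2 gave 39 higher.

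Of 408 values for the 24 genes named between sides 48 were under 2-fold, and 19 of the 24 lost the call in at least 1 alternative. Between classes 4 of 432 values were, in 4 genes. Without cells with at least 3 replication and mitosis genes, Lig1 turned to -0.065 between sides and Atf3 to -0.24 between classes ipsilaterally. List medians of Thbs4 over Aqp4 cells that turned were activated stem cells (contralaterally 0.64 at a class limit of 2 and 0.81 without those cells; ipsilaterally 1.004 without them), quiescent stem cells (ipsilaterally 0.74 at 10 UMIs), MHC class I (contralaterally -0.17 at 10 UMIs) and hypoxia (contralaterally 0.016 with cells weighted equally). These are the turns among medians further from 0. Medians nearer 0 changed sign too. Among them were STAT3 and cytokine response ipsilaterally (0.28, lowest -0.37) and quiescent stem cells contralaterally (-0.009, highest 0.72). Regional factors ipsilaterally (-0.18, highest 0.25) were another. The cause was not tested. Class limits do not apply to sides in all astroglia, nor CPM settings to shares, and gave no value there. No paired analysis was possible because each side has 1 library. Depth limits genes below about 50 UMIs, and the sides, with no replicates, cannot be told apart from the libraries.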
